A study of Mus musculus with 2 samples.

Results

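The genes described here are the myeloid lineage transcription factors Spi1, Cebpa, Cebpb, Cebpd, Cebpe, Gfi1, Irf8, Klf4, Runx1 and Gata2, which were chosen by symbol and not by their values. Of these 10 genes, 9 had a row among the 27998 genes of the table, and Cebpd was not analysed here. The measurements were single-cell RNA-seq counts of UMIs (unique molecular identifiers, which tag the transcripts captured from a cell) of mouse MLL-AF9 leukemia, an acute myeloid leukemia made by retroviral delivery of a fusion oncogene. All donors were adult C57Bl/6 mice that carried Kat2a Flox/Flox alleles and received pIpC, an interferon inducer that switches on the Mx1-Cre recombinase in interferon-responsive cells. Donors that were Mx1-Cre+/- gave the Kat2a-KO leukemias and donors that were Mx1-Cre-/- gave the Kat2a-WT leukemias. Lineage-depleted marrow cells were transduced, grown in lethally irradiated recipients, and live cells with the YFP reporter of the fusion were sorted from a pool of 5 terminal WT leukemias and a pool of 4 terminal KO leukemias. There was therefore 1 library per genotype, no difference between the libraries could be tested, and differences between genotypes and between the individual leukemias of a pool cannot be told apart. Excision of Kat2a, which encodes a histone acetyltransferase, was induced in the donors before transduction.

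Lineage transcription factors bind regulatory DNA of myeloid genes and set which branch a progenitor enters. Spi1 (PU.1) and Runx1 act across the myeloid lineage, Cebpa opens the granulocyte and monocyte program, Cebpe and Gfi1 act in granulocyte maturation, and Irf8 and Klf4 act in monocyte development. Gata2 is a factor of stem cells, mast cells and basophils. Gfi1 represses monocyte genes and Irf8 restrains the granulocyte program, so both are known for opposed patterns in normal marrow.

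RefSeq promoter windows, from 250 bases before to 50 bases after a transcription start (GRCm38.p6), were given for 7 of the 9 measured genes, 11 windows in all. Irf8 is shown as a factor that was higher with monocyte markers in the measurements below, and Gfi1 as a factor that was higher with granulocyte markers. No window was given for Cebpe, whose ratio along granulocyte markers was larger than that of Gfi1. Each had 2 windows, of which the one with a motif match is shown, and only the 250 bases before the start are printed. Capitals mark letters of TTCNNNGAA, the motif of STAT factors, in Irf8 (chr8:120736108-120736357, plus strand), and letters of TTGCNNAA, a C/EBP motif, in Gfi1 (chr5:107725806-107726055, minus strand).
Irf8: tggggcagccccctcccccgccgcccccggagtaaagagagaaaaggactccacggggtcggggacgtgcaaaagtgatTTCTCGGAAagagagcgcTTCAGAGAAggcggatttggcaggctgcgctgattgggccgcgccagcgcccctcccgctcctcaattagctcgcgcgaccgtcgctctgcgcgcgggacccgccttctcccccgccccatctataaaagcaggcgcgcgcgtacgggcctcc
Gfi1: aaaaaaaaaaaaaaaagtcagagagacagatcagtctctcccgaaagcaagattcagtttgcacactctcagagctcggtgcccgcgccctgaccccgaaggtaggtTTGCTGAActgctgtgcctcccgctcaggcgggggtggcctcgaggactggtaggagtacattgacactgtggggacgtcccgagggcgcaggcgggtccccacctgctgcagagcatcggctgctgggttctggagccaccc
The second window of each gene held no match of any motif searched. The Irf8 window shown held 2 STAT matches, beginning 171 and 153 bases before the start, and the Gfi1 window shown held 1 C/EBP match, beginning 143 bases before the start. Of 32851 promoter windows of the same length, 8.30% held TTCNNNGAA and 10.8% held TTGCNNAA on either strand. The STAT motif was added after the Irf8 sequence had been seen. The remaining motifs searched were the palindrome TTGCGCAA (0.183% of windows), the ETS motif GAGGAAG (13.6%), the RUNX motif TGTGGT (16.8%), the GATA motif AGATAA (11.2%) and the IRF motif (3.44%). Among the 11 windows these had matches in 1, that of the distal Runx1 promoter, where TGTGGT was found on the opposite strand 28 and 36 bases past the start. A match is a description of letters and was not tested for binding.

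The WT-labelled library held 3866 cells with 500 or more detected genes and 11669427 UMIs, and the KO-labelled library held 3545 such cells and 7920256 UMIs, with medians of 2588.5 and 1884 UMIs per cell. Levels are given as CPM, UMIs of a gene per 1e6 UMIs of the cells named, and intervals are exact Poisson or binomial 95% intervals that cover counting error only. The genotype of each library was taken from code that the authors released, since the labels do not tie barcodes to genotypes, and the targeted gene went against it. Kat2a stood at 12.2 CPM in the WT-labelled library and at 95.8 CPM in the KO-labelled library. The paper states that excision leaves a transcript with the last exon, so that 3′ counts cannot measure the knockout. Why the level was higher in the KO-labelled library was not tested, and the genotype of each library remained unchecked. Of the 8309 deposited cells, 28 barcodes were found in both libraries. The pan-myeloid list (Ptprc, Cd33, Fcgr3, Lyz2, Tyrobp, Fcer1g) summed to 8516 and 6815 CPM, and all 6 measured genes were detected in both libraries, while the T and NK cell list summed to 1.03 and 1.14 CPM with 4 and 3 of its 7 genes at 0.

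To follow the factors along differentiation, cells with at least 1000 UMIs (3800 of the WT-labelled library and 3351 of the KO-labelled library) were thinned to 1000 UMIs each and ranked by UMIs of 17 granulocyte markers and, separately, of 22 monocyte markers. A cell was granulocyte-high at 172 or more marker UMIs and granulocyte-low at 4 or fewer. It was monocyte-high at 5 or more and monocyte-low at 1 or fewer, and since monocyte markers were sparse, 1202 of 7151 cells (16.8%) lay within 1 UMI of the monocyte-high limit against 47 (0.657%) at the granulocyte-high limit. These are ranges of a score and not cell types. None of the 9 factors was in either marker list, but the lists hold genes named as their targets, so scores and factors are not fully separate. Among these are Camp, Ngp, Ltf, Lcn2 and Mmp8, listed for C/EBP factors, and Ly86, Ctss, Cst3 and Csf1r, listed for Irf8. The 17 granulocyte markers summed to 252487 and 239622 CPM in the granulocyte-high cells of the WT-labelled and KO-labelled libraries and to 2610 and 2688 CPM in the granulocyte-low cells. The median gene had a log2 ratio of -0.56 and -0.53 in CPM between granulocyte-high and granulocyte-low cells, and of -0.18 and -0.16 when the marker lists were left out of the total, and a factor's ratio is to be read against that shift.

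Cebpe and Gfi1 were higher in granulocyte-high cells, and Irf8, Klf4, Gata2 and Cebpa were lower, in both libraries. Counting ratios of 1.5-fold or more in the same direction in both libraries, 2 of 9 factors were higher, beside 6.07% of 9244 genes, and 4 of 9 were lower, beside 37.0% of genes, so the count of lower factors was near the background. The median log2 ratio of the 9 factors was -0.43 in the WT-labelled library, with Gata2 at its bound, and 0.24 in the KO-labelled library.

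Cebpe, on chromosome 14 (54710360 to 54712174, minus strand in GENCODE M21, GRCm38), is needed for secondary granule formation. Over the 4 quartiles of cells ordered from lowest to highest granulocyte content, its CPM was 208, 462, 767 and 853 in the WT-labelled library. In the KO-labelled library it was 159, 449, 736 and 782. The level was higher in each successive quartile in both libraries, and the log2 ratio of granulocyte-high over granulocyte-low cells was 2.03 (interval 1.92 to 2.15) and 2.30 (2.13 to 2.47).

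Gfi1, a zinc finger repressor required for neutrophil formation (chromosome 5, 107716657 to 107726036, minus strand), did not follow the markers to the top. Its CPM over the quartiles was 33.9, 66.3, 90.5 and 52.4 in the WT-labelled library and 18.2, 40.7, 58.8 and 48.4 in the KO-labelled library. The level was highest in the third quartile of both libraries. In the KO-labelled library the intervals of the third and the highest quartile overlapped, and in the WT-labelled library they did not, at 79.3 to 103 and 43.9 to 62.1 CPM. The log2 ratio of the highest over the lowest quartile was 0.63 (0.27 to 0.99) and 1.41 (0.85 to 1.99). The first of these was under 1.5-fold with the top and bottom 10% of cells (0.43), in thinned cells (0.47) and as UMIs per cell (0.17).

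Spi1 (chromosome 2, 91082390 to 91115756, plus strand) differed less. Its CPM over the granulocyte quartiles was 551, 715, 787 and 809 in the WT-labelled library and 568, 743, 826 and 816 in the KO-labelled library. The log2 ratios of 0.55 and 0.52 were under 1.5-fold, with the median gene on the other side of 0, and were 0.94 and 0.89 when the marker genes were left out of the total.

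Irf8 (chromosome 8, 120736358 to 120756694, plus strand), which directs monocyte and dendritic cell development, showed the largest log2 ratio in both libraries among the factors with UMIs in both cell groups. Its CPM over the granulocyte quartiles was 398, 137, 16.1 and 10.2 in the WT-labelled library and 233, 102, 15.8 and 3.23 in the KO-labelled library. The highest quartile was 39.1-fold below the lowest in the WT-labelled library (26 and 1549 UMIs) and 72.1-fold below in the KO-labelled library (5 and 549 UMIs).

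Klf4 (chromosome 4, 55527143 to 55532466, minus strand), a zinc finger factor of monocytes, stood at 33.1, 29.0, 3.83 and 1.96 CPM over the granulocyte quartiles of the WT-labelled library. In the KO-labelled library it stood at 40.3, 12.9, 3.16 and 1.29 CPM. Both libraries had 5 or fewer Klf4 UMIs in the highest quartile.

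Cebpa (chromosome 7, 35119293 to 35121928, plus strand), the C/EBP factor of early granulocyte and monocyte commitment, was also lower in cells with more granulocyte marker UMIs. It stood at 36.7, 37.2, 9.20 and 11.7 CPM in the WT-labelled library and at 30.5, 28.4, 13.6 and 7.75 CPM in the KO-labelled library. The step lay between the second and the third quartile in the WT-labelled library, and the log2 ratio of the highest over the lowest quartile was -1.65 (-2.27 to -1.07) and -1.98 (-3.00 to -1.09).

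Gata2 (chromosome 6, 88193891 to 88207032, plus strand) had 57 UMIs in the granulocyte-low cells of the WT-labelled library and 0 in the granulocyte-high cells, which were at least 12.5-fold lower when 3 UMIs were taken as the limit for a count of 0. In the KO-labelled library it had 89 UMIs in granulocyte-low cells and 1 in granulocyte-high cells, a log2 ratio of -5.87 with an interval of -11.2 to -3.35.

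Cebpb (chromosome 2, 167688915 to 167690418, plus strand), a C/EBP factor of macrophages and of emergency granulopoiesis, went in opposite directions in the 2 libraries. Its CPM over the granulocyte quartiles was 1996, 2105, 1844 and 1696 in the WT-labelled library and 1562, 1528, 1904 and 1874 in the KO-labelled library. The log2 ratios were -0.24 (-0.29 to -0.18) and 0.26 (0.19 to 0.33), both under 1.5-fold. The WT-labelled library turned to 0.15 when the marker genes were left out of the total, where the KO-labelled library was at 0.63, and the KO-labelled library turned to -0.03 both as UMIs per cell and in thinned cells.

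Runx1 (chromosome 16, 92601466 to 92826149, minus strand), the DNA-binding partner of Cbfb in blood formation, stayed between 35.7 and 51.6 CPM in the 4 quartiles of the WT-labelled library and between 42.0 and 51.7 CPM in those of the KO-labelled library. Its log2 ratio was -0.43 (-0.79 to -0.07) and 0.24 (-0.20 to 0.68), both under 1.5-fold. The first was past the fold, at -0.96, in thinned cells, and the second turned to -0.31 with the top and bottom 10% of cells.

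**Figure D1:**
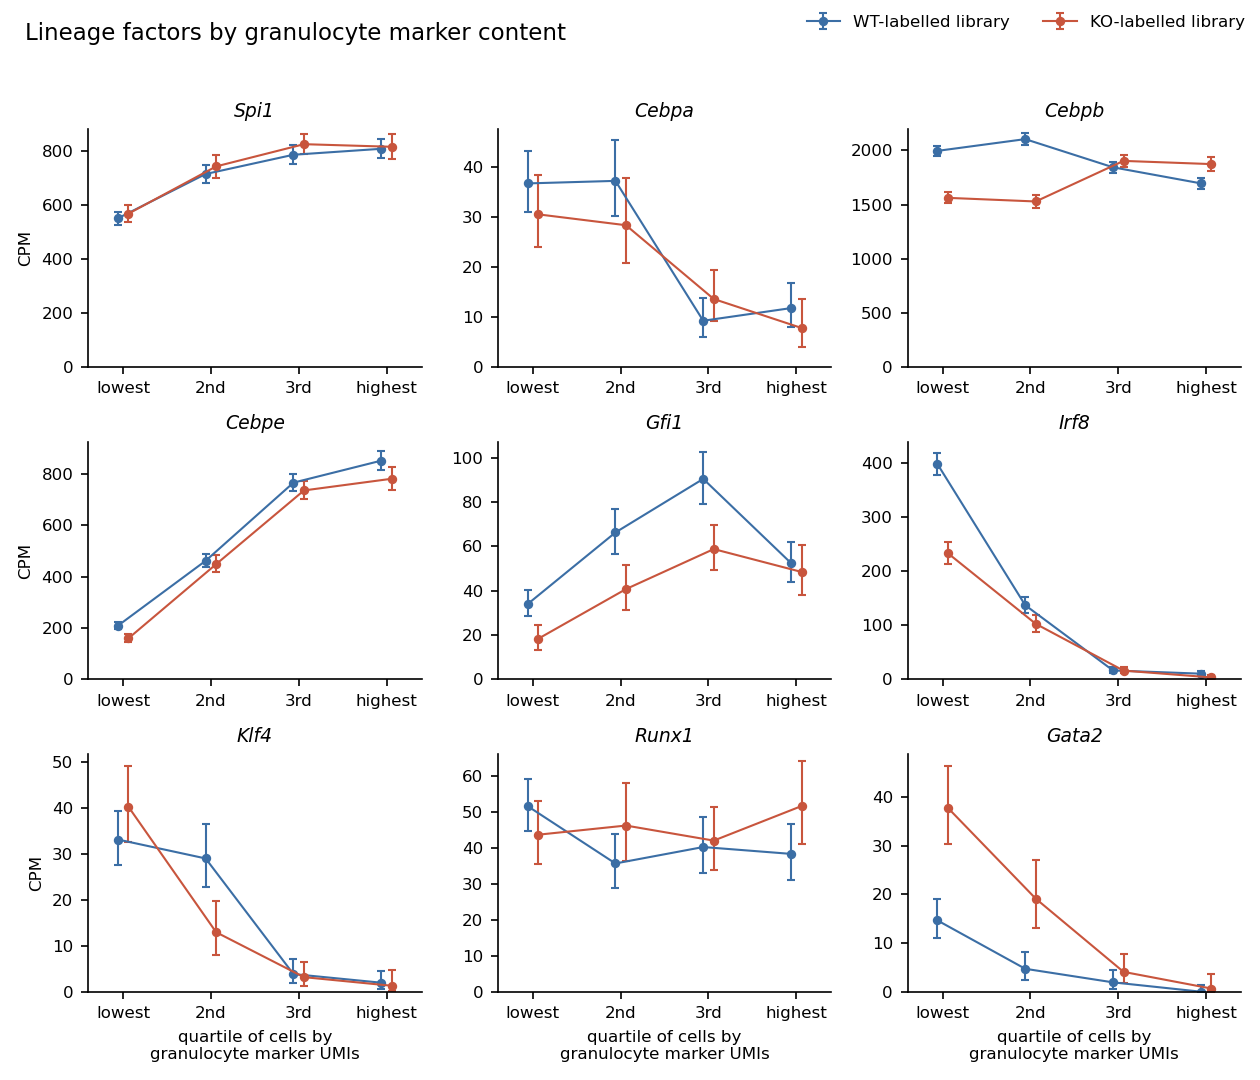
CPM of each factor in 4 quartiles of cells ordered by granulocyte marker UMIs, from lowest to highest, in the WT-labelled library (blue) and the KO-labelled library (red); points are levels over all cells of a quartile, bars are exact Poisson 95% intervals and each vertical axis starts at 0. Cebpe was higher with each quartile, Gfi1 was highest in the third quartile, and Irf8 stood at 398 and 233 CPM in the lowest quartile against 10.2 and 3.23 CPM in the highest.

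Along monocyte content the order of the factors was turned. Irf8, Klf4, Cebpa and Gata2 were 1.5-fold or more higher in monocyte-high than in monocyte-low cells in both libraries, 4 of 9 factors beside 16.1% of 9284 genes, and Cebpe and Gfi1 were lower, 2 of 9 beside 5.87%. The median log2 ratio of the 9 factors was 0.80 and 0.48, and that of all genes was 0.23 and 0.18.

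Irf8 stood at 31.8, 92.2, 181 and 397 CPM from the lowest to the highest monocyte quartile of the WT-labelled library. In the KO-labelled library it stood at 17.6, 43.5, 113 and 246 CPM. The level was higher in each successive quartile, and the highest over the lowest quartile was 12.5-fold and 14.0-fold.

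Klf4 was concentrated further up. It stood at 3.07, 4.21, 11.8 and 54.6 CPM in the WT-labelled library and at 3.26, 0.806, 6.74 and 53.3 CPM in the KO-labelled library, where the second quartile held 1 UMI. Of the 221 and 138 Klf4 UMIs, 169 and 104 fell in monocyte-high cells.

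Cebpa was 2.45-fold and 2.96-fold higher in monocyte-high cells, at 38.8 against 15.8 CPM in the WT-labelled library and 34.8 against 11.8 CPM in the KO-labelled library. Cebpb was at 2831 against 1621 CPM (1.75-fold) in the WT-labelled library and at 2241 against 1603 CPM (1.40-fold) in the KO-labelled library, so it passed the fold in 1 library. With marker scores taken at the depth of each cell the log2 ratio of the KO-labelled library was 0.65, past the fold. In the lower 3 quartiles Cebpb lay between 1412 and 1621 CPM in both libraries.

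Gata2 was at 9.37 against 3.77 CPM and at 20.5 against 13.4 CPM. The log2 ratio of the KO-labelled library, 0.61 (-0.05 to 1.28), had an interval that included 0 and was between 0.43 and 0.58, below the fold, under 4 of the other settings. Cebpe was 2.59-fold and 2.15-fold lower and Gfi1 3.18-fold and 2.53-fold lower in monocyte-high cells. Spi1 (log2 ratio -0.16 and -0.19) and Runx1 (0.25 and 0.20) were within the fold.

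**Figure D2:**
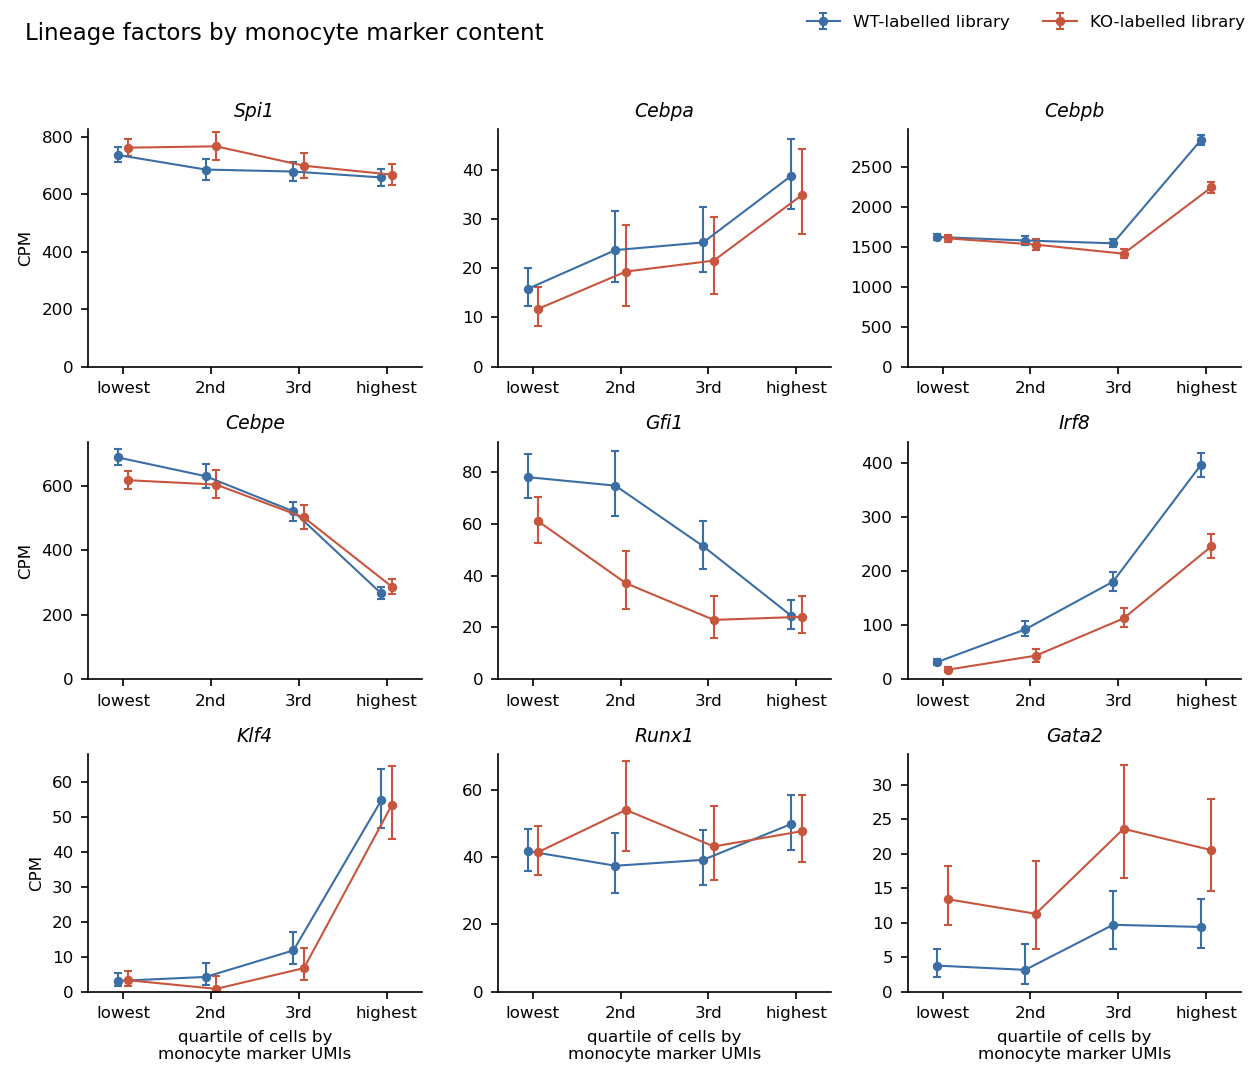
CPM of each factor in 4 quartiles of cells ordered by monocyte marker UMIs, from lowest to highest, in the WT-labelled library (blue) and the KO-labelled library (red); points are levels over all cells of a quartile, bars are exact Poisson 95% intervals and each vertical axis starts at 0. The quartiles are unequal in size because scores tie. Irf8 was higher with each quartile. Klf4 was at 54.6 and 53.3 CPM in the highest quartile and at 11.8 CPM or less in the others. Cebpe and Gfi1 were lowest or near their lowest in the highest quartile.

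Both marker scores were then used together. Granulocyte-high cells that were not monocyte-high numbered 1017 in the WT-labelled library and 722 in the KO-labelled library, monocyte-high cells that were not granulocyte-high numbered 1097 and 920, cells high for both numbered 29 and 29, and cells high for neither numbered 1657 and 1680. The granulocyte-high cells were 26.8% (25.4 to 28.2) and 21.5% (20.2 to 23.0) of the thinned cells. Between the first and the second of these classes, 2 of 9 factors were higher in both libraries, beside 5.50% of 9176 genes, and 4 of 9 were lower, beside 34.0%. They were the same genes as along granulocyte content. Cebpe and Gfi1 were higher in the granulocyte-high class, and Cebpa, Irf8, Klf4 and Gata2 in the monocyte-high class. Gata2 was at a similar level in cells high for neither list, 7.47 and 20.7 CPM against 9.58 and 21.2 CPM in monocyte-high cells.

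Irf8 stood at 405 CPM in monocyte-high and at 9.64 CPM in granulocyte-high cells of the WT-labelled library, and at 255 and 3.38 CPM in the KO-labelled library. After thinning, 27.3% and 17.1% of monocyte-high cells had an Irf8 UMI against 1.18% and 0.416% of granulocyte-high cells, whose median depths before thinning were 2227 and 1667.5 UMIs in monocyte-high and 2179 and 1846 UMIs in granulocyte-high cells. Whether the share in granulocyte-high cells came from these cells or from RNA of other cells was not tested. Klf4 was at 55.8 against 2.01 CPM and at 55.2 against 1.35 CPM in the same cells. Cebpe was at 852 CPM in granulocyte-high against 253 CPM in monocyte-high cells of the WT-labelled library and at 773 against 262 CPM in the KO-labelled library. After thinning, 51.2% and 47.2% of granulocyte-high cells and 17.3% and 16.6% of monocyte-high cells had a Cebpe UMI. The part of RNA from other cells in the Cebpe level of monocyte-high cells was not tested either. Gfi1 was at 52.2 against 23.8 CPM and at 48.6 against 23.4 CPM, and its highest level among the classes of the WT-labelled library, 77.2 CPM, was in cells high for neither list. Those cells also carried the most primary granule transcripts of the 4 classes, 27969 and 24439 CPM over 8 genes that include Mpo and Elane.

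Primary granule content, compared after the values above had been seen, gave another order. Gfi1 was at 71.8 CPM in the highest and 36.7 CPM in the lowest quartile of primary granule UMIs in the WT-labelled library and at 45.9 and 32.2 CPM in the KO-labelled library. Klf4 was 5.05-fold and 6.11-fold lower and Cebpb 1.92-fold and 1.80-fold lower in the highest quartile, which made 2 of 9 factors lower in both libraries, beside 8.21% of 9218 genes, and 0 of 9 higher, beside 14.4%. Cebpa was 1.74-fold and 1.46-fold higher.

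Between the libraries as a whole, Irf8 was lower and Gata2 higher in the KO-labelled library, and the other 7 factors were within 1.5-fold. This was 1 of 9 higher, beside 6.79% of 9307 genes with 50 or more UMIs, and 1 of 9 lower, beside 11.8%, a share near the background in both directions. The median log2 ratio was -0.12 over the 9 factors and -0.01 over all genes. With 1 library per genotype these ratios compare 2 libraries and have no replicate check.

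Irf8 had 1994 UMIs (171 CPM, 163 to 179) in the WT-labelled library and 821 UMIs (104 CPM, 96.7 to 111) in the KO-labelled library, a log2 ratio of -0.72 (-0.84 to -0.60). After thinning, 12.1% and 7.16% of cells had an Irf8 UMI. Gata2 had 74 UMIs (6.34 CPM) and 135 UMIs (17.0 CPM), a log2 ratio of 1.43 (1.01 to 1.86), and the 10 cells with most of its UMIs held 40.5% of them in the WT-labelled library. Gfi1 was at 57.7 and 40.0 CPM, a log2 ratio of -0.53 (-0.72 to -0.33). That value lay just inside the fold and was past it, at -0.73, in cells with 1000 or more genes.

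The factors with most UMIs differed little. Cebpb was at 1936 and 1739 CPM (log2 ratio -0.15), Spi1 at 697 and 734 CPM (0.07) and Cebpe at 529 and 506 CPM (-0.06). Spi1 turned to -0.13 when cells were matched on total UMIs. Among the sparser factors, Runx1 was at 42.8 and 45.5 CPM (0.09, interval -0.11 to 0.28), Cebpa at 25.1 and 20.7 CPM (-0.28, -0.56 to 0.00) and Klf4 at 18.9 and 17.4 CPM (-0.12, -0.44 to 0.19). The intervals of these 3 genes included 0. Klf4 was past the fold, at -0.89, when cells were matched on total UMIs, and Runx1 turned to -0.23 in cells with 1000 or more genes. A single cell of the KO-labelled library held 11 of its 138 Klf4 UMIs, and another 15 of its 360 Runx1 UMIs.

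The library ratio of some factors varied between marker classes. Irf8 was lower in the KO-labelled library among monocyte-high cells (log2 ratio -0.67, -0.82 to -0.51). The monocyte list summed to 8466 and 8256 CPM there, but the same list had chosen these cells, so the sums are no separate check. Among cells high for neither list Irf8 was also lower (119 and 62.7 CPM, -0.92, -1.13 to -0.72). Klf4 in monocyte-high cells had a log2 ratio of -0.02 between the libraries, with an interval of -0.38 to 0.35. Gfi1 was lower in cells high for neither list (77.2 and 45.3 CPM, -0.77, -1.02 to -0.53), and its ratio was -0.10 (-0.54 to 0.32) in granulocyte-high and -0.03 (-0.60 to 0.54) in monocyte-high cells. Cebpb was lower in monocyte-high cells (2845 and 2229 CPM, -0.35) and higher in granulocyte-high cells (1684 and 1842 CPM, 0.13). Gata2 was higher in monocyte-high cells (1.15, 0.42 to 1.89) and in cells high for neither list (1.47, 0.93 to 2.02). Whether a ratio differed between classes was not tested.

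**Figure D3:**
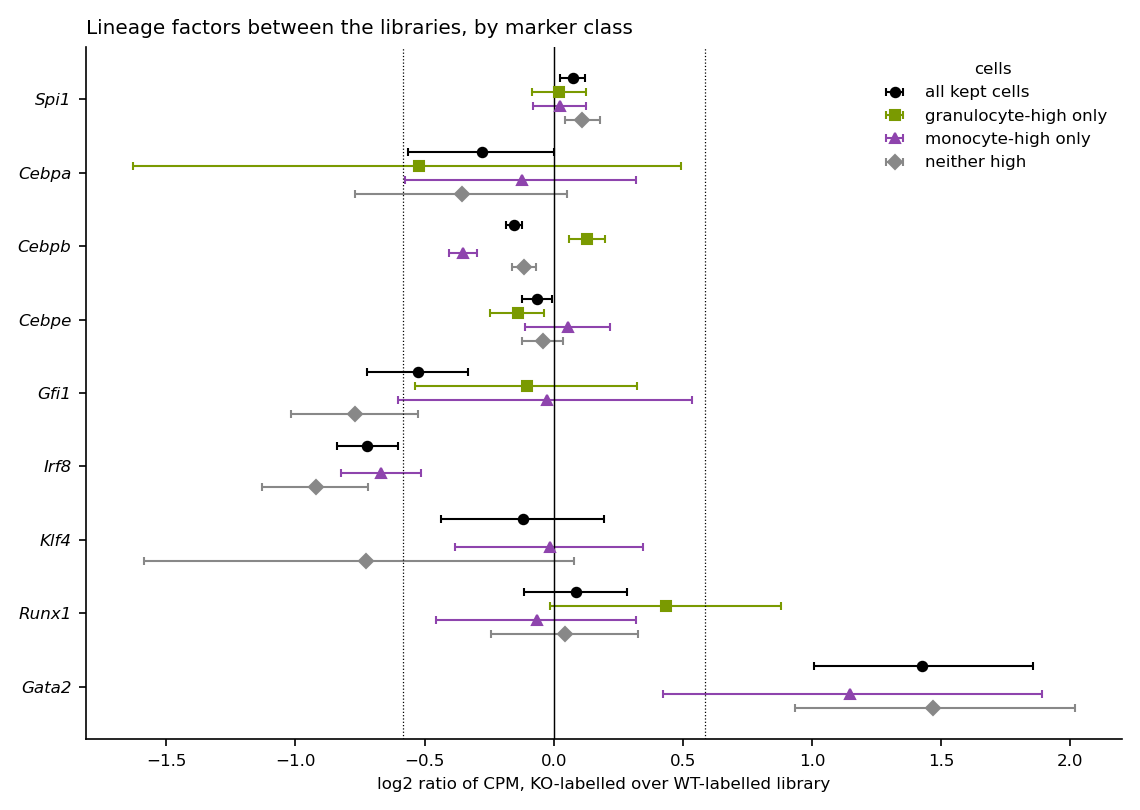
Log2 ratio of CPM, KO-labelled over WT-labelled library, of each factor in all kept cells (black circles), granulocyte-high cells (green squares), monocyte-high cells (purple triangles) and cells high for neither list (grey diamonds); bars are exact 95% intervals for counting error, dotted lines mark 1.5-fold, and a point is left out where either library had fewer than 10 UMIs. Irf8 lay at -0.67 and -0.92 in the monocyte-high and the neither-high cells, and Gfi1 at -0.77 in the neither-high cells against -0.10 and -0.03 in the others.

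Transcripts of mast cells and basophils were at a higher level in cells with Gata2 UMIs than in the remaining cells, although most Gata2 cells had none. This comparison was added after the Gata2 values had been seen. There were 54 such cells in the WT-labelled library and 106 in the KO-labelled library, 1.40% (1.05 to 1.82) and 2.99% (2.45 to 3.61) of kept cells, and their median depths were 3446 and 2342.5 UMIs against 2582.5 and 1881 UMIs in the remaining cells. The 7 mast cell, basophil and eosinophil markers summed to 1467 and 1715 CPM in them and to 127 and 147 CPM in the remaining cells. A UMI of any of the 7 was found in 29.6% and 42.5% of the Gata2 cells and in 6.98% and 7.47% of the remaining cells. Mcpt8, a basophil protease, was at 876 and 1064 CPM against 54.2 and 83.9 CPM, and Cpa3, a mast cell and basophil carboxypeptidase, was at 256 and 526 CPM against 15.4 and 33.5 CPM. Prss34 and Fcer1a had 0 UMIs in the Gata2 cells of both libraries, and Ms4a2, a chain of the IgE receptor, had 1 and 0. The 10 progenitor genes summed to 832 and 841 CPM in the Gata2 cells against 665 and 571 CPM, and differed among themselves. The surface antigen Cd34 was at 148 and 205 CPM against 29.8 and 70.3 CPM, whereas the homeobox gene Hoxa9 was at 128 and 53.5 CPM against 180 and 123 CPM, and Kit had 2 and 0 UMIs in the Gata2 cells. In the KO-labelled library the Gata2 cells also held 5735 CPM of erythroid transcripts against 320 CPM in the remaining cells, although only 11.3% of them had any.

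Over whole libraries, the megakaryocyte list summed to 27.1 and 172 CPM and the erythroid list to 208 and 550 CPM, with 0 of 6 megakaryocyte genes and 1 and 0 of 8 erythroid genes at 0, and the mast cell, basophil and eosinophil list to 151 and 214 CPM. The sums of the 3 lists were, like Gata2, higher in the KO-labelled library. Prg2 of the mast cell list (62.0 and 33.0 CPM) and Vwf of the megakaryocyte list (9 and 2 UMIs) were among the genes that were lower. Cells with 5 or more UMIs of the 3 lists together numbered 64 (1.66%) and 102 (2.88%) and held 27 of 74 and 42 of 135 Gata2 UMIs. Without them Gata2 was at 4.13 and 12.5 CPM. Cells with fewer than 5 UMIs of the 3 lists stayed in, and their part in the difference was not tested.

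Pairs of factors were then examined in single cells thinned to 1000 UMIs, by the number of cells with a UMI of both over the number given by the product of the separate shares. Of the 36 pairs, Irf8 with Klf4 stood highest among those with a product of 4 or more cells in both libraries. There were 33 such cells in the WT-labelled library, 3.01 times the product (2.07 to 4.23), and 12 in the KO-labelled library, 2.94 times (1.52 to 5.13). Cebpe with Gfi1 was next among pairs whose interval lay above 1 in both libraries, with 91 and 57 cells, 1.41 (1.14 to 1.74) and 1.59 (1.20 to 2.06) times the product.

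Factors of opposite branches shared fewer cells than the product. Cebpe and Irf8 were found together in 87 and 30 cells, 0.522 (0.418 to 0.644) and 0.386 (0.261 to 0.552) times the product. Cebpe and Klf4 were at 0.363 and 0.325 times, and Gfi1 and Irf8, with 11 and 2 cells, at 0.516 and 0.252 times. Gfi1 and Klf4 were found together in 0 cells of either library, where the products were 4.24 and 1.89 cells. Spi1 lay between 0.857 and 1.09 times the product with each of the other 8 factors, and intervals of all its pairs included 1. The pairs share libraries and depth, and the ratios are a description.

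**Figure D4:**
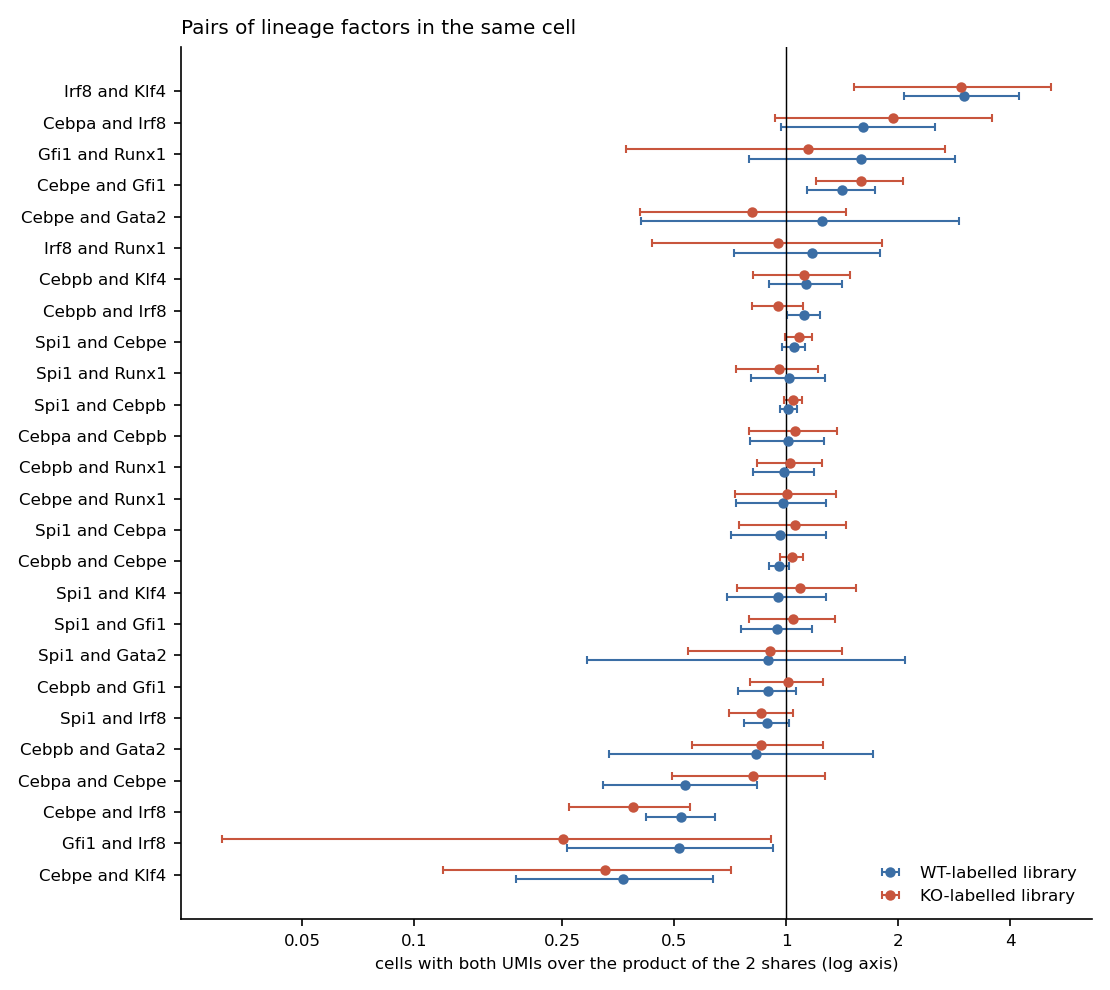
Number of thinned cells with a UMI of both factors over the number given by the product of their shares, on a log axis, for the 26 of 36 pairs with a product of 4 or more cells in both libraries; blue is the WT-labelled library, red the KO-labelled library, and bars are exact 95% intervals for counting error. Irf8 with Klf4 stood at 3.01 and 2.94, and Cebpe with Klf4 at 0.363 and 0.325.

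Spread between cells was measured as the coefficient of variation (CV, the SD divided by the mean) of thinned counts for the 5 factors detected in 10% or more of kept cells. The CV was larger in the KO-labelled library for each of them, by a log2 ratio of 0.08 for Spi1 (1.28 and 1.36), 0.14 for Cebpb (1.13 and 1.25), 0.27 for Cebpe (1.62 and 1.95), 0.31 for Gfi1 (4.76 and 5.90) and 0.41 for Irf8 (3.11 and 4.12). The median over 2737 genes of that detection was 0.02. On counts scaled at the depth of each cell the 5 log2 ratios lay between 0.19 and 0.54, beside a median of 0.21. Irf8 and Gfi1 were also lower in mean in that library, and the CV that counting alone gives at their means was 2.41 and 3.17 for Irf8 and 4.38 and 5.18 for Gfi1. Cebpe had a nearly equal counting CV of 1.34 and 1.36, and its variance over mean was 1.46 and 2.06.

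Likeness of pattern was computed over 30 groups of cells, split by library, granulocyte quartile and monocyte quartile, as the Pearson correlation of log2(CPM + 1) with 4014 genes outside the marker lists. The groups share libraries and the values are descriptions. Irf8 was most like Emb (r = 0.94), Ctsz (0.92) and Glipr1 (0.92), and Cebpe was most like Arhgdib (0.98), Tmsb4x (0.96) and Trem3 (0.96). Spi1 was most like Rac2, a GTPase of phagocytes (0.91), Hsd11b1 (0.90) and Prdx5 (0.90). Cebpb was most like Sh3bgrl3 (0.90), Btg1 (0.87) and the chemokine receptor Ccr1 (0.86). Gfi1 had looser matches in Smc4 (0.81), Dram1 (0.80) and Ppp1cb (0.79).

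Other transcription factors of the same families and of blood formation were taken as a list of 57 genes, of which 45 had 50 or more UMIs. Between the libraries 2 of 45 were 1.5-fold or more higher and 8 lower in the KO-labelled library, with a median log2 ratio of -0.07, beside the 6.79% and 11.8% of all genes. Gfi1b, the erythroid and megakaryocyte paralog of Gfi1, was at 1.03 and 5.93 CPM (2.53), and Klf10 at 55.1 and 90.8 CPM (0.72). Erg (-0.92), Klf3 (-0.88), Cebpg (-0.84) and Klf13 (-0.83) were lower. Along granulocyte content 7 were higher and 15 lower in both libraries, beside 6.07% and 37.0% of all genes. Along monocyte content 12 were higher and 2 lower, beside 16.1% and 5.87%. The interferon regulatory factor Irf5 went with Irf8, at a log2 ratio of 3.91 and 3.43 in monocyte-high cells, as did the inhibitor of DNA binding Id3 (5.45 and 4.97), the stress factor Atf3 (3.62 and 3.49), Rara (2.79 and 1.90), Irf7 (2.09 and 2.23) and Zeb2 (1.31 and 1.53). Id3 had only 53 and 30 UMIs in the kept cells of the WT-labelled and KO-labelled libraries, so its ratios are uncertain. The ETS factor Ets1 was higher in granulocyte-high cells (2.63 and 4.41), and Ikzf2 was lower (-1.92 and -2.07). Ets1 had only 128 and 58 UMIs in the kept cells of the 2 libraries, so its ratios are uncertain too.

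Genes listed as targets of the factors were compared between the libraries only, since many are themselves markers, and the counts stand beside 6.79% of all genes higher and 11.8% lower. Of 7 measured genes listed for Irf8, 3 were 1.5-fold or more higher in the KO-labelled library, where Irf8 itself was lower, and 0 were lower. They were the antigen presentation genes Cd74 (52.6 and 498 CPM), H2-Aa (12.3 and 113 CPM) and B2m (1457 and 2312 CPM), and the monocyte genes Ly86, Ctss, Cst3 and Csf1r of the list were within the fold. The B cell list summed to 54.3 and 79.0 CPM and the dendritic cell list to 53.7 and 81.3 CPM, and their part in this was not tested. Of 8 genes listed for C/EBP factors 2 were lower, the granule genes Mmp8 (76.5 and 34.3 CPM) and Lcn2 (3341 and 1867 CPM). Of 9 cytokine receptors 1 was lower, Il6ra (28.5 and 12.8 CPM). Of 8 genes listed for Spi1 none passed the fold, and the median log2 ratio was -0.25. Of 7 genes listed as repressed by Gfi1 1 was higher, the cell cycle inhibitor Cdkn1a (64.7 and 121 CPM).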

How the data were processed

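Single-cell RNA-seq of 2 pools of sorted mouse MLL-AF9 leukemia cells was analysed. The authors aligned the reads and deposited 1 matrix of raw UMI counts for both libraries, without normalization. The submitters' processing notes name Cell Ranger 1.3.1 and mm10. The barcode suffix gave the library, and its genotype came from the study's published code.

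A cell was kept if at least 500 genes were detected in it. Summed counts were scaled to CPM, with exact Poisson intervals, and ratios had exact conditional intervals. For marker scores, co-detection and CV, cells with 1000 or more UMIs were thinned to 1000 UMIs (seed 1), which left out 66 cells of the WT-labelled library and 194 of the KO-labelled library. With 1 library per genotype no test was made, and a ratio of 1.5-fold or more was counted. Where a count was 0, 3 UMIs were used as its limit. Scripts were tested on simulated data. Scrublet called 12 and 0 doublets, too few to rely on, so doublets were kept and the 5% of cells with the highest scores were left out as an alternative. All 9 measured genes are named. Other factors and targets were named where they passed the fold with 50 or more UMIs, up to 6 of each list by size of log2 ratio per comparison, and the 3 genes most like each factor with 500 or more UMIs. The genes most like Runx1 are not reported here. The genes and lists were chosen with earlier results of these data known. Positions are from GENCODE M21 and promoters from RefSeq. Python 3.11.15, numpy 2.4.6, scipy 1.17.1 and scanpy 1.11.5 were used.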

Additional observations from a re-analysis of the deposited data

Results flagged for a closer look

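Cebpb differed in direction between the libraries along granulocyte content. Its log2 ratio of granulocyte-high over granulocyte-low cells was -0.24 in the WT-labelled library and 0.26 in the KO-labelled library. The difference between the libraries was not tested, since there was 1 library per genotype.

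Cells with fewer than 500 detected genes, which entered no comparison above, held UMIs of the factors too. There were 203 such cells in the WT-labelled library with 1010 UMIs of the 9 factors, and 695 in the KO-labelled library with 3560. Cebpb was at 2618 and 3512 CPM in them, above the 1936 and 1739 CPM of the kept cells, and Irf8 was at 26.9 and 43.6 CPM, below the 171 and 104 CPM of the kept cells. Gata2 had 0 and 9 UMIs there.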

How the results depend on the processing

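Of 48 values of the main counts and medians under other settings, 42 stayed within 1.5 times. None of the medians turned direction, and a count has no direction to turn. An unchanged count can also hold other genes. With the top and bottom 10% of cells along granulocyte content, the 2 higher factors were Spi1 and Cebpe in place of Cebpe and Gfi1. The median log2 ratio of the 9 factors between the libraries, -0.12, was -0.055 with every deposited cell, -0.23 when at least 1000 genes were asked for, -0.33 in 2784 cells per library matched on total UMIs, -0.19 under median-of-ratios scaling and -0.55 as UMIs per cell, a scaling that moved the median gene to -0.45. The count of factors past 1.5-fold between the libraries, 2, was 5 as UMIs per cell (Cebpa, Cebpb, Gfi1 and Irf8 lower, Gata2 higher). It was 3 with the limit at 1000 genes and under median-of-ratios scaling, with Gfi1 added, and in matched cells, with Klf4 added. Irf8 lay between -1.16 and -0.68 and Gata2 between 0.99 and 1.85 over all settings. The causes were not tested. Alternatives without shared barcodes, without the 10 highest cells of each factor, and without cells carrying erythroid, megakaryocyte and mast cell markers were chosen after seeing the data, and gave counts of 2, 3 and 2. Of 549 single values, 406 stayed within their counting interval or within 1.5 times, and 143 moved. No paired analysis was possible because each genotype had 1 library. Depth limited Klf4, Cebpa, Runx1 and Gata2 most, with 74 to 500 UMIs per library.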
